A study of Mus musculus with 3 samples.

Results

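The 10 genes described here encode parts of interleukin 6 (IL-6) and interleukin 1 (IL-1) signaling. They are the IL-6 family ligands *Il6* and *Lif*, the IL-6 receptor subunits *Il6ra* and *Il6st*, the feedback inhibitor *Socs3*, the IL-1 family ligands *Il1b* and *Il33*, the soluble receptor antagonist *Il1rn*, and the receptors *Il1r1* and *Il1rl1*. They were taken by name, and each was found once among the 27998 genes of the count matrices. Their transcripts were followed in non-cardiomyocytes (non-CMs) of the mouse ventricle, sorted into endothelial cells (ECs), fibroblasts (FBs), mural cells (pericytes and smooth muscle cells), macrophages and monocytes by sums over marker lists that held none of the 10 genes. All 3 samples came from wild-type male C57BL/6J JCL mice. Pressure overload was imposed at 8 weeks of age by transverse aortic constriction (TAC), a ligature that narrows the aortic arch. The healthy sample was labelled as the control at 0 weeks, the adaptive hypertrophy sample was taken 2 weeks after TAC and the heart failure sample 12 weeks after it. The labels do not say whether the healthy mice had a sham operation, or how many hearts went into a sample. Each phase was 1 droplet library, so phase and library cannot be told apart, no test between phases was possible, and every interval below is a 95% interval that covers counting error only.

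IL-6 binds its receptor IL6RA, and the pair then recruits gp130, the product of *Il6st*, which starts signaling through JAK kinases and STAT3. A cell that lacks IL6RA can still respond when soluble IL6RA is supplied from elsewhere, and LIF and other relatives of IL-6 also signal through gp130. STAT3 drives transcription of *Socs3*, whose product blocks gp130 and the JAKs in turn. IL-1β, made as a precursor that needs cleavage, and IL-33, an alarmin stored in the nucleus and released by damaged cells, signal through IL1R1 and ST2 (*Il1rl1*), each with the shared partner IL1RAP, and on to NF-kB, while IL1RN occupies IL1R1 without a signal. In the heart these cytokines are known for their part in hypertrophy, fibrosis and the recruitment of leukocytes.

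Of the 3892, 2231 and 792 cells kept in the healthy, adaptive hypertrophy and heart failure libraries, 1047, 1695 and 292 were ECs, 1239, 95 and 191 FBs, 385, 63 and 39 mural cells, 826, 101 and 49 macrophages and 49, 50 and 11 monocytes. The libraries held 12287823, 4465929 and 1712728 unique molecular identifiers (UMIs, 1 per captured transcript), with medians of 2589, 1495 and 1434 per cell. Levels are UMIs of a gene per 1000000 UMIs of the class (CPM). In each library at least 93.9% of the cells called EC, FB, mural or macrophage held 3 or more markers of their own list, against 57.1%, 82% and 90.9% of monocytes. The mural class also carried endothelial markers, at 1702, 1875 and 1264 CPM summed over 10 genes, against 6459, 7712 and 8333 CPM in ECs. The 12 dissociation stress genes, among them several immediate early genes, summed to 21459, 18578 and 15553 CPM in ECs and 13774, 12453 and 15057 CPM in FBs, and enzymatic digestion is known to induce such genes, *Il6*, *Il1b* and *Socs3* among them. Few barcodes were shared between libraries (5 between healthy and adaptive hypertrophy, 1 and 3 for the other pairs).

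The promoters of 3 genes are shown because their levels carry most of the results: *Il6*, the ligand that was higher in ECs at 2 weeks, *Socs3*, the feedback gene, and *Il1b*, the ligand of the myeloid cells. Each run is the 250 bases before the RefSeq transcription start on GRCm38.p6, 5′ to 3′ on the gene's strand, with matches to searched motifs in capitals. The motifs were the STAT site TTCNNNGAA, the AP-1 site TGANTCA, the NF-kB consensus and the TATA box TATAAA, searched on both strands.
*Il6* (chr5:30012864-30013113, plus strand): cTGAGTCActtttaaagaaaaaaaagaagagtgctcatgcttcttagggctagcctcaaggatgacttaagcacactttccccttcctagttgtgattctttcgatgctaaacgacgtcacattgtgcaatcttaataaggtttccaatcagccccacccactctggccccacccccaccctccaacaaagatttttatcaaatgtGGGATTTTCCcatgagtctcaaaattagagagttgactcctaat
*Socs3* (chr11:117969367-117969616, minus strand): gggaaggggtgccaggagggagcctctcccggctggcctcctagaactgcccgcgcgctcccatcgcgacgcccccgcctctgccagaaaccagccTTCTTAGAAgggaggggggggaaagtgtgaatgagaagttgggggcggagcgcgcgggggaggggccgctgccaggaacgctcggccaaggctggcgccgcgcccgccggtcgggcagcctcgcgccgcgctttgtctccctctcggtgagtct
*Il1b* (chr2:129371140-129371389, minus strand): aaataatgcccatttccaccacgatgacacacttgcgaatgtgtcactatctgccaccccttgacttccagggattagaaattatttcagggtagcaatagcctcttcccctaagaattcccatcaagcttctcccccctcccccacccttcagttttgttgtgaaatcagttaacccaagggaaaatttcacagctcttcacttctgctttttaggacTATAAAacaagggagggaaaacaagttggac
The *Il6* run held an AP-1 match at -249 to -243 and an NF-kB match at -44 to -35 from the start. The *Socs3* run held a STAT match at -154 to -146, and the *Il1b* run a TATA box at -31 to -26. Such matches are common: of 32851 promoters of this length, 7.02% held the STAT letters, 6.75% the AP-1 letters, 7.25% the NF-kB consensus and 12.4% the TATA box. All 10 genes had a RefSeq promoter, 15 in all with alternative starts. Among the others, *Lif* held AP-1 and NF-kB matches, the first *Il1rn* start an AP-1 match, the second *Il1r1* start an NF-kB match and both *Il33* starts a TATA box, and the promoters of *Il6ra*, *Il6st* and *Il1rl1* held none of these letters in the window. The genes lie on chromosomes 5 (*Il6*), 3 (*Il6ra*), 13 (*Il6st*), 11 (*Lif* and *Socs3*), 2 (*Il1b* and *Il1rn*), 1 (*Il1r1* and *Il1rl1*) and 19 (*Il33*).

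The 10 genes were spread unequally over the classes, and in the healthy library *Il6* and *Il6st* were both mostly in FBs. There, FBs held 69.2% of the 863 *Il6* UMIs and 89.0% of the 219 *Il33* UMIs, while macrophages held 62.5% of the 464 *Il6ra* UMIs and 79.6% of the 6950 *Il1b* UMIs. *Il6st* and *Il1r1* UMIs were mostly in FBs (53.5% and 53.5%), and ECs held the largest share of *Socs3* UMIs (36.6%). At 2 weeks ECs held 66.3% of the 652 *Il6* UMIs and FBs 14.3%, in a library with 1695 ECs and 95 FBs. ECs also held 74.3% of the *Il6st* and 75.2% of the *Il1r1* UMIs at 2 weeks. At 12 weeks FBs again held most *Il6* UMIs, 73.1% of 156. These shares follow the number of cells recovered in each class as well as the level in each cell, so levels are given from here on.

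**Figure D1:**
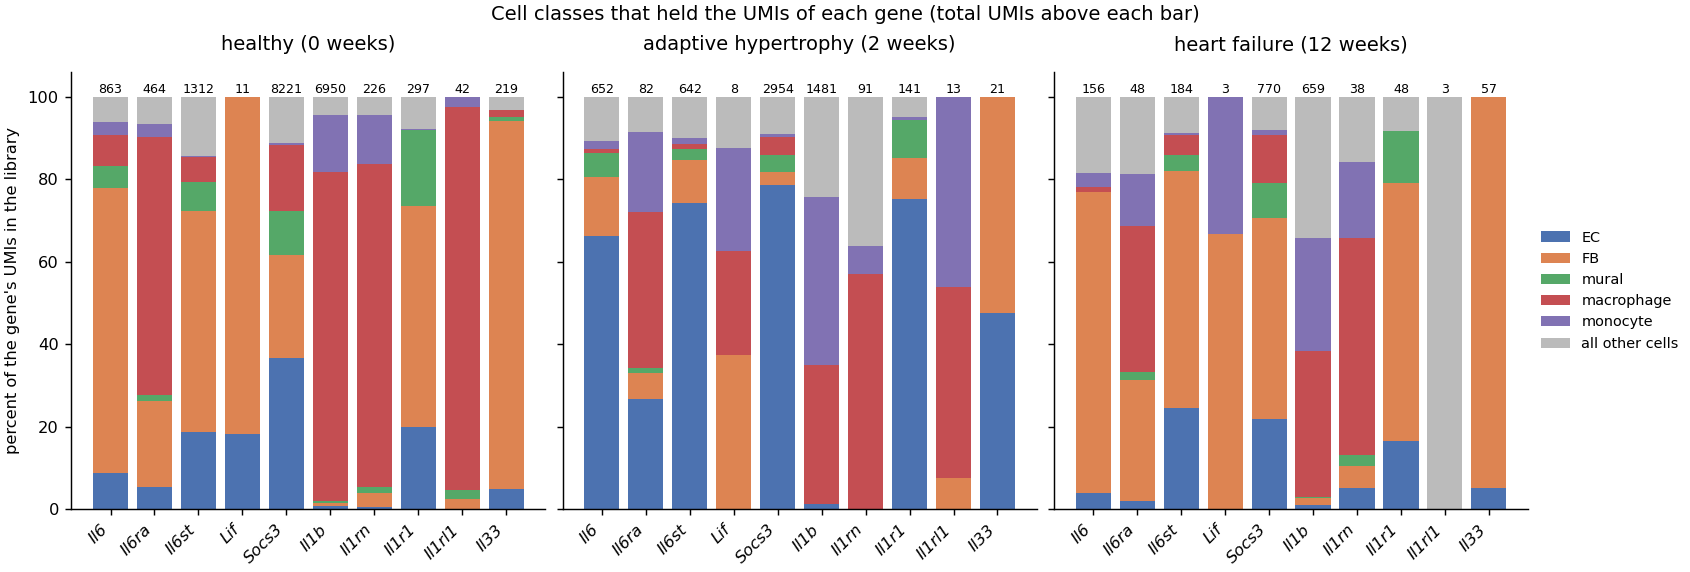
Percent of each gene's UMIs (vertical axis) held by each cell class in the healthy, adaptive hypertrophy and heart failure libraries, with the library's total UMIs of the gene above the bar. *Il6* UMIs were mostly in FBs in the healthy library (69.2%) and mostly in ECs at 2 weeks (66.3%), while *Il1b* and *Il1rn* UMIs were myeloid in every library.

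*Il6* encodes the founding ligand of the family. In the healthy library its level was 146 CPM (134 to 158) in FBs, 136 CPM (89.8 to 198) in monocytes, 32.8 CPM (24.0 to 43.7) in mural cells, 27.4 CPM (21.1 to 35) in macrophages and 24.3 CPM (19.1 to 30.4) in ECs. FBs stood 6.01-fold (4.72 to 7.74) above ECs and 5.32-fold (4.10 to 6.99) above macrophages, while FBs and monocytes were not separated beyond counting error (ratio 1.07, 0.727 to 1.64), nor were mural cells, macrophages and ECs among themselves. Of the 27 monocyte UMIs, 14 lay in 1 cell. In FBs the gene was seen in 244 of 1239 cells (19.7%, and 11.0% after each cell was thinned to 1000 UMIs).

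At 2 weeks the *Il6* level in ECs was 130.5 CPM (118 to 143), from 432 UMIs against 75, a ratio of 5.38 (4.20 to 6.97) to the healthy library. It was 357 CPM (288 to 437) in FBs, a ratio of 2.45 (1.95 to 3.05), and 183 CPM (129.6 to 251) in mural cells, a ratio of 5.59 (3.54 to 8.78). Macrophages and monocytes, at 33.8 CPM (13.6 to 69.6) and 87.3 CPM (45.1 to 152), were not separated from their healthy levels. In ECs the higher level came both from more cells and from more UMIs per cell: 128 of 1695 cells had a UMI (7.55%) against 52 of 1047 (4.97%), and 29 cells held 5 or more UMIs against 1. Thinned to 1000 UMIs, 6.30% of the 1285 ECs deep enough at 2 weeks and 1.62% of all 1047 healthy ECs had a UMI. The FB markers were summed over 10 genes, of which *Lamc3* alone was at 0. In ECs the sum was 68.3 CPM at 2 weeks and 361 CPM in the healthy library. The part of FB transcripts in the EC result was not tested. The FB and mural values rest on few cells. In FBs 5 of 95 cells held 64.5% of the 93 UMIs, and the ratio was 1.08 without the 5 cells with the most UMIs in each library and 0.974 when cells were thinned to 1000 UMIs, which left out cells under that depth. In mural cells 5 of 63 cells held 78.9% of the 38 UMIs, and the endothelial markers in that class were at 1875 CPM against 1702 CPM. Their part in the result was not tested.

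At 12 weeks *Il6* was at 182 CPM (150.2 to 219) in FBs, a ratio of 1.25 (1.01 to 1.53) to healthy, which became 0.853 without the 5 cells with the most UMIs in each library. Of the FBs, 25.3% at 2 weeks and 17.3% at 12 weeks had a UMI, and 14.3% and 12.2% when thinned. ECs had 6 UMIs in 3 of 292 cells, or 12.7 CPM (4.66 to 27.7), and mural cells had none in 39 cells, where 3 counts would have been 24.3 CPM. The EC *Il6* level was 6.98% of the FB level at 12 weeks, beside 1.87%, 7.35% and 27.8% for the FB genes *Gsn*, *Bgn* and *Mgp*. It thus lay between *Gsn* and *Bgn*. *Mgp* was at only 3.35% of its FB level in macrophages and 1.23% in monocytes, and whether ECs made it was not tested. At 2 weeks the EC *Il6* level was 36.5% of the FB level, beside 0.199%, 1.75% and 5.46% for the same genes. In the healthy library it was 16.6%, beside 1.08%, 4.73% and 13.8%. Between 2 and 12 weeks the EC levels did not overlap in their intervals. FBs were above ECs in each library, 2.74-fold (2.16 to 3.43) at 2 weeks and 14.3-fold (6.39 to 39.9) at 12 weeks.

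**Figure D2:**
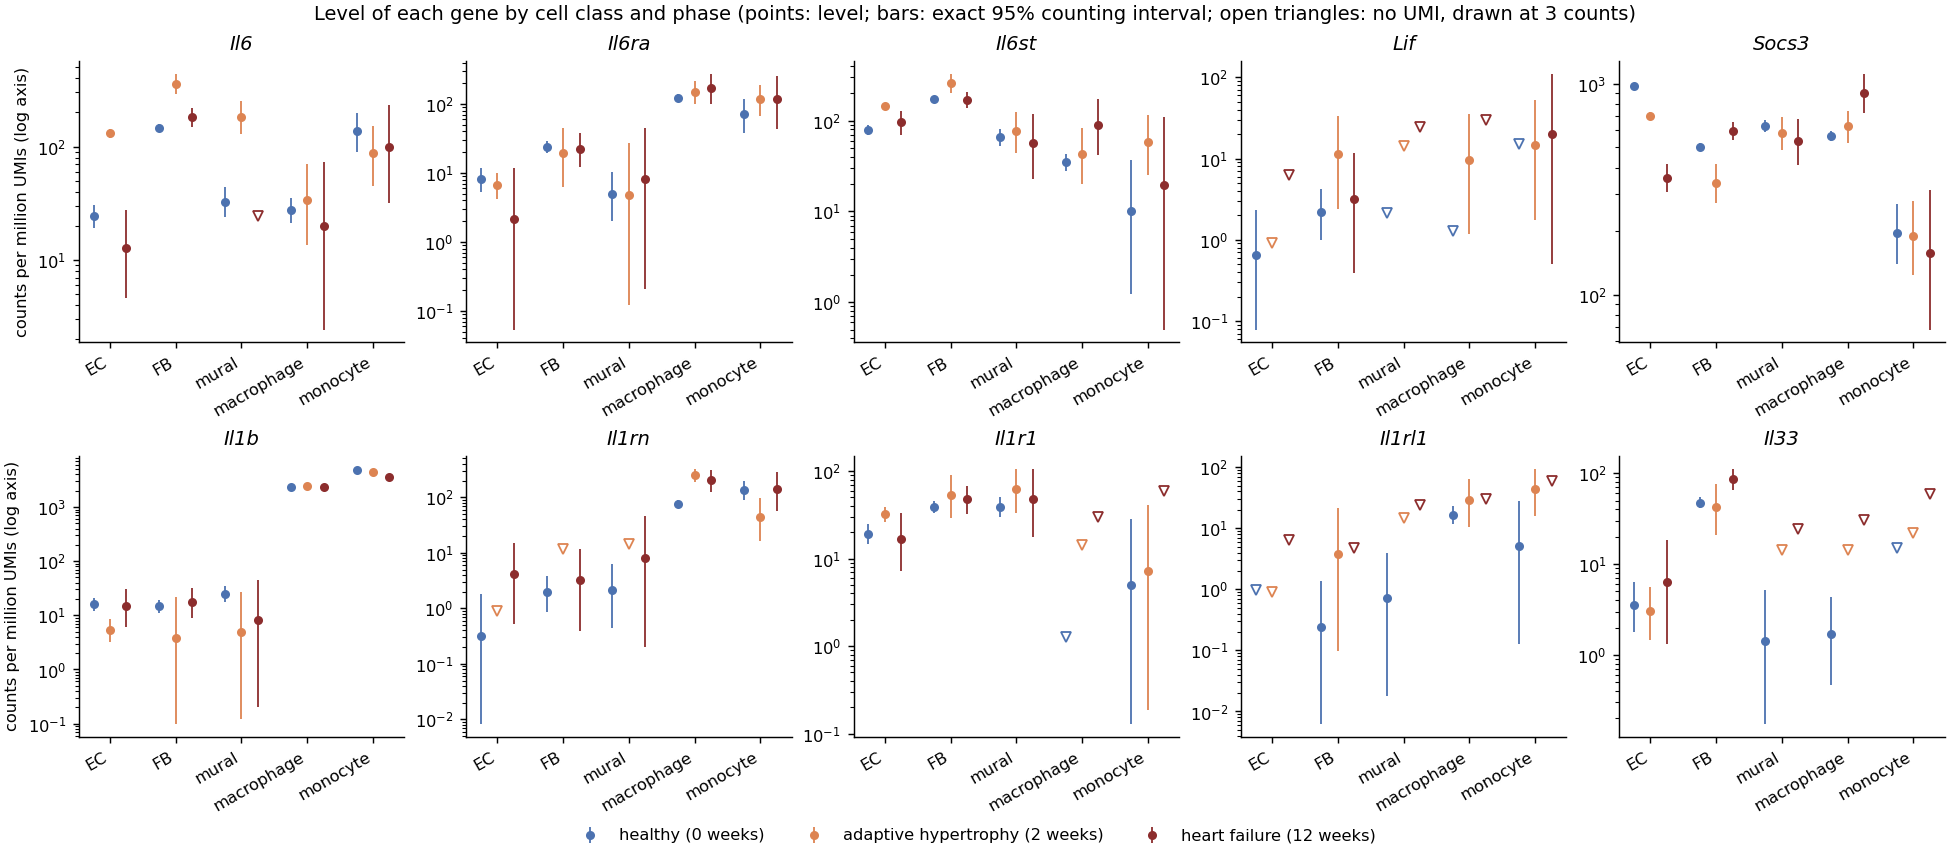
Level of each gene in CPM (log axis) by cell class, with healthy, adaptive hypertrophy and heart failure libraries side by side. Points are levels, bars are exact 95% counting intervals, and open triangles mark classes with no UMI at the level of 3 counts. *Il6* in ECs was at 24.3, 130.5 and 12.7 CPM, while *Il1b* was between 2353 and 2397 CPM in macrophages in each library. At 12 weeks 1 macrophage held 102 of the 234 *Il1b* UMIs of its class.

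Within ECs, cells were gated further by at least 3 detected markers of the venous list (*Vwf*, *Nr2f2*, *Vcam1*, *Lrg1*, *Ackr1*) or of the arterial list. At 2 weeks the 43 venous-gated ECs held 100 of the 432 EC *Il6* UMIs, at 728 CPM (593 to 886), and 17 of these cells had a UMI. The 124 arterial-gated ECs were at 56.7 CPM (33.6 to 89.6), and the 1516 ECs in no gate at 110.5 CPM (98.6 to 123). The venous gate stood 6.59-fold (5.21 to 8.28) above the ungated ECs and 12.8-fold (7.72 to 22.5) above the arterial gate. Against the healthy library the ratio was 8.82 (4.31 to 21.0) in venous-gated, 4.87 (1.17 to 43.3) in arterial-gated and 4.64 (3.54 to 6.18) in ungated ECs, so all 3 were higher. *Vcam1* is itself a target of cytokine signaling, so the venous cells were also taken by 2 of *Vwf*, *Nr2f2* and *Ackr1* and set against all other ECs. The ratio at 2 weeks was then 3.59 (2.67 to 4.76). In the healthy library it turned from 3.47 (1.44 to 7.26), on 8 UMIs, to 0.271 (0.00678 to 1.56), on 1 UMI, so no difference in healthy ECs can be read from it. The 3-marker gate was chosen after the values were seen. The heart failure library held 2 venous-gated ECs, with no *Il6* UMI.

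**Figure D3:**
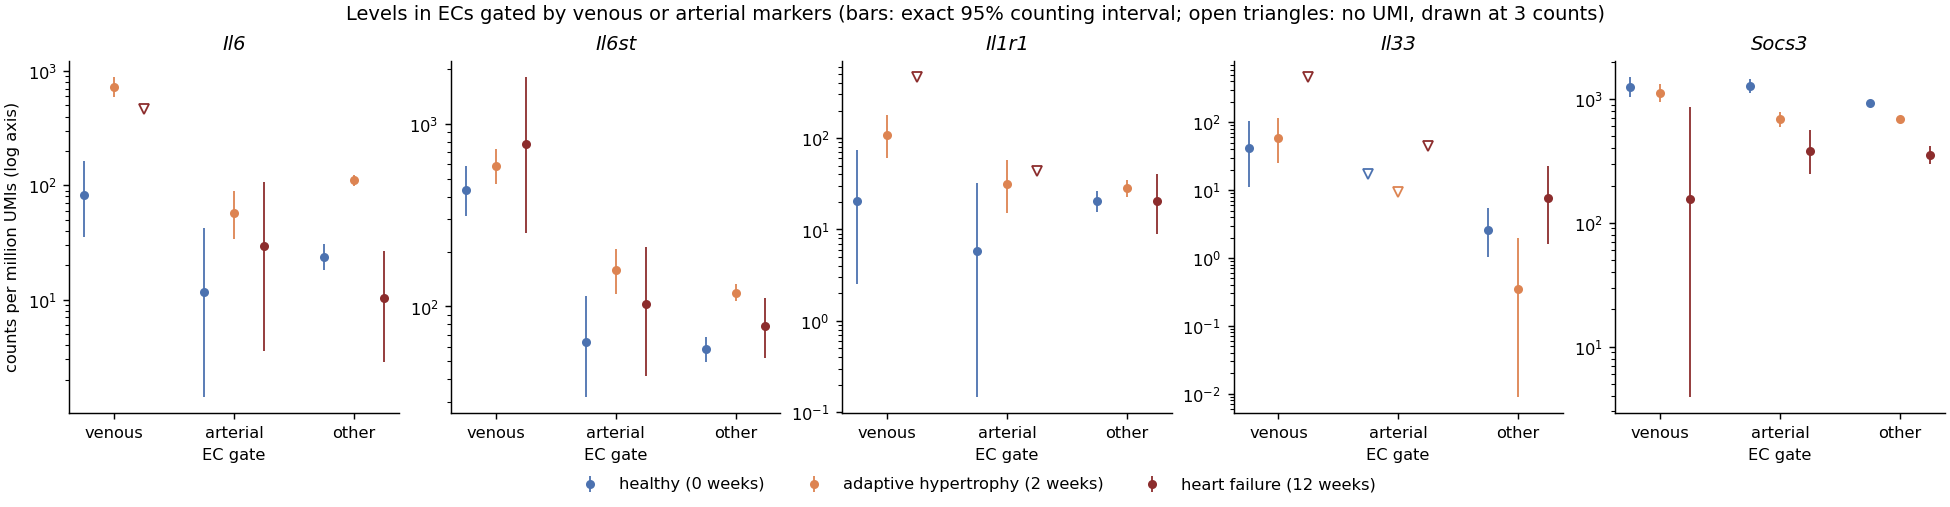
Level in CPM (log axis) of 5 genes in ECs gated as venous, arterial or neither, by phase, with exact 95% counting intervals and open triangles at 3 counts where there was no UMI. *Il6* at 2 weeks was at 728 CPM in venous-gated and 110.5 CPM in other ECs, and the heart failure library had 2 venous-gated cells.

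Within FBs the healthy *Il6* level was lower in cells with at least 2 activation markers (*Postn*, *Cilp*, *Thbs4*, *Ltbp2*, *Comp*), at 109 CPM (88.9 to 133), than in ungated FBs, at 174 CPM (156 to 193), a ratio of 0.629 (0.498 to 0.788). At 2 weeks the order was the opposite, with 418 CPM (323 to 533) in 46 activated cells and 169.5 CPM (94.9 to 279.6) in 44 ungated ones, a ratio of 2.47 (1.39 to 4.66). At 12 weeks the ratio was 0.646 (0.414 to 0.998). Adventitial-gated FBs (2 or more of *Pi16*, *Cd248*, *Ly6c1* and *Dpp4*) were likewise below ungated FBs in the healthy library, a ratio of 0.746 (0.615 to 0.902), and above them at 2 weeks, a ratio of 4.65 (2.03 to 10.5), with all 13 UMIs in 1 of 5 cells. The 2-week values carry the same limit of few cells as the FB level. Among macrophages, those with 2 or more resident markers (*Folr2*, *Lyve1*, *Timd4*, *Cd163*) held 47 of the 64 healthy *Il6* UMIs, at 49.6 CPM (36.5 to 66.0) against 12.2 CPM (7.13 to 19.6) in the rest.

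*Lif*, the ligand of the LIF receptor and gp130, was close to the limit of detection. FBs had 9, 3 and 2 UMIs at 0, 2 and 12 weeks, or 2.20 CPM (1.00 to 4.17), 11.5 CPM (2.38 to 33.7) and 3.20 CPM (0.387 to 11.5). ECs had 2 UMIs in the healthy library and none at 2 weeks, where 3 counts would have been 0.906 CPM. No mural cell had a UMI in any library. Macrophages had 0, 2 and 0 UMIs and monocytes 0, 2 and 1. In FBs a difference between phases was not detectable at this depth (ratio at 2 weeks 5.24, 0.913 to 21.0). In macrophages the lower bound of the interval at 2 weeks was 2.12, but 2 UMIs against none are too few to read.

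*Il6ra*, the subunit that binds IL-6, marked the myeloid cells. It was at 124 CPM (110.3 to 139), 149.5 CPM (102 to 212) and 171 CPM (99.6 to 274) in macrophages at 0, 2 and 12 weeks and at 70.7 CPM (38.6 to 119), 116 CPM (66.5 to 189) and 119 CPM (43.5 to 258) in monocytes. FBs were lower, at 23.7 CPM (19.2 to 28.9), 19.2 CPM (6.23 to 44.8) and 22.4 CPM (12.2 to 37.5). ECs were at 8.09 CPM (5.23 to 11.9), 6.64 CPM (4.16 to 10.1) and 2.12 CPM (0.0536 to 11.8), and mural cells at 4.99, 4.82 and 8.10 CPM from 7, 1 and 1 UMIs. In the healthy library macrophages exceeded FBs 5.24-fold (4.15 to 6.67) and ECs 15.4-fold (10.2 to 24.1), and ECs and mural cells were not separated (ratio 1.62, 0.681 to 4.44). The interval of every phase ratio of *Il6ra* in the 5 classes included 1, in macrophages 1.20 (0.803 to 1.75) for 2 weeks and 1.38 (0.791 to 2.24) for 12 weeks.

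Free RNA from burst cells can give low levels in classes that do not make a transcript, so each class was set beside 3 macrophage genes. In healthy FBs *Lyz2*, *Ctss* and *Fcer1g* were at 0.680%, 0.688% and 0.758% of their macrophage level, and *Il6ra* was at 19.1%. In healthy ECs the 3 genes were at 0.552%, 0.770% and 0.491% and *Il6ra* at 6.51%. *Il6ra* in both classes was thus above the share that the 3 macrophage genes reached. Within healthy FBs it was higher in cells with 2 or more adventitial markers (*Pi16*, *Cd248*, *Ly6c1*, *Dpp4*), at 39.5 CPM (29.3 to 52.1), than in activated FBs, at 5.46 CPM (1.77 to 12.7).

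*Il6st*, which encodes gp130, was found in all 5 classes. FBs were highest in each library, at 171 CPM (159 to 184), 257 CPM (199 to 327) and 169 CPM (139 to 205) at 0, 2 and 12 weeks. ECs were at 79.6 CPM (69.9 to 90.1), 144 CPM (131 to 158) and 95.3 CPM (69.5 to 128). The healthy levels of mural cells, macrophages and monocytes were 65.6 CPM (52.9 to 80.4), 34.7 CPM (27.5 to 43.1) and 10.1 CPM (1.22 to 36.5). Healthy FBs exceeded ECs 2.15-fold (1.86 to 2.50), ECs and mural cells were not separated (1.21, 0.951 to 1.56), and mural cells exceeded macrophages 1.89-fold (1.39 to 2.58). At 2 weeks the ratio to healthy was 1.81 (1.55 to 2.12) in ECs and 1.5 (1.15 to 1.93) in FBs, and at 12 weeks it was 1.20 (0.852 to 1.65) and 0.988 (0.798 to 1.21). In macrophages the ratio at 12 weeks was 2.61 (1.15 to 5.20), on 9 UMIs in 8 of 49 cells. The FB genes *Bgn*, *Mgp* and *Gsn* were at 151, 432 and 794 CPM in these macrophages, against 39.8, 139 and 519 CPM in healthy ones. The part of FB transcripts in the macrophage result was not tested. In monocytes the ratio at 2 weeks was 5.76 (1.15 to 55.7), on 8 UMIs against 2.

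The venous-gated ECs stood out for *Il6st* as well. They were at 433 CPM (312 to 586) in the healthy library and 590.0 CPM (469 to 733) at 2 weeks, 7.43-fold (5.15 to 10.5) and 4.96-fold (3.84 to 6.34) above ungated ECs. With the gate of 2 of 3 markers the ratios were 5.38 (3.88 to 7.34) and 4.00 (3.05 to 5.17), and 6.64 (2.81 to 14.1) at 12 weeks, on 9 UMIs. The 8 healthy ECs with endocardial markers had 20 UMIs, or 526 CPM (322 to 813). Arterial-gated ECs, at 64.0 CPM (31.9 to 115), lay close to ungated ECs, at 58.4 CPM (49.6 to 68.2). Against the healthy library the 2-week ratio was 2.04 (1.68 to 2.48) in ungated and 2.46 (1.26 to 5.24) in arterial-gated ECs. In venous-gated ECs it was 1.36 (0.926 to 2.03), an interval that included 1.

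Cells in which both *Il6ra* and *Il6st* were seen were few: 41 of 1239 healthy FBs (3.31%), 23 of 826 macrophages (2.78%) and 9 of 1047 ECs (0.860%). At 2 weeks 8 of 1695 ECs held both. Among healthy FBs with an *Il6* UMI, 43.4% also had an *Il6st* UMI, against 39.4% of all healthy FBs. Among ECs with an *Il6* UMI, 10 of 52 had an *Il6st* UMI in the healthy library and 54 of 128 at 2 weeks, where 17.0% and 20.1% of all ECs had one. At these depths a cell without a UMI may still hold the transcript, and cells with more UMIs in total are more likely to show both genes. Venous-gated ECs at 2 weeks were high in both *Il6* (728 CPM) and *Il6st* (590 CPM). The part of depth and of these cells in the shares was not tested.

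*Socs3*, the inhibitor that STAT3 induces, was detected broadly. Healthy ECs stood at 974 CPM (940.0 to 1009.9), followed by 628 CPM (587 to 671) in mural cells, 567 CPM (537 to 598) in macrophages, 499 CPM (478 to 521) in FBs and 197 CPM (140.0 to 269) in monocytes, and each neighbour in this order was separated beyond counting error. In ECs it was lower at 2 weeks, at 702 CPM (674 to 731), and lower again at 12 weeks, at 358 CPM (306 to 416), with ratios to healthy of 0.721 (0.682 to 0.761) and 0.367 (0.313 to 0.429). The share of ECs with a UMI was 77.8%, 52.3% and 29.1%, and 57.4%, 39.9% and 22.3% when thinned to 1000 UMIs, which left 1047, 1285 and 197 cells. The stress genes in ECs were lower in the same order (21459, 18578 and 15553 CPM), and their part in the result was not tested.

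In FBs *Socs3* was at 338 CPM (271 to 416) at 2 weeks, a ratio of 0.677 (0.540 to 0.838), and at 598 CPM (538 to 661) at 12 weeks, a ratio of 1.20 (1.07 to 1.34) that became 1.05 without the 5 cells with the most UMIs in each library. Macrophages were at 627 CPM (524 to 744) at 2 weeks and 905 CPM (728 to 1113) at 12 weeks, with ratios of 1.11 (0.917 to 1.33) and 1.60 (1.28 to 1.98). The stress genes were at 13774, 12453 and 15057 CPM in FBs and 11338, 11353 and 13818 CPM in macrophages at 0, 2 and 12 weeks. They thus moved in the direction of *Socs3* in FBs, and in macrophages at 12 weeks only. In mural cells they were at 17028, 18152.5 and 16455 CPM and in monocytes at 5291, 7231 and 6407 CPM. There they were higher at 2 weeks while *Socs3* was not. The median mitochondrial share of the macrophages was 2.78%, 4.27% and 7.86%, and the part of either in the result was not tested. Mural cells, at 583 CPM (484 to 697) and 535 CPM (414 to 680.3), and monocytes, at 189 CPM (124 to 277) and 158 CPM (68.3 to 312), were not separated from healthy. At 12 weeks macrophages therefore exceeded ECs 2.53-fold (1.94 to 3.29), whereas healthy ECs exceeded macrophages 1.72-fold (1.61 to 1.84). Of the ECs with an *Il6* UMI at 2 weeks, 80.5% had a *Socs3* UMI, against 52.3% of all ECs. In venous-gated ECs *Socs3* was 1.63-fold (1.38 to 1.93) above ungated ECs at 2 weeks. Cells with more UMIs in total are more likely to show both genes. The depth of the ECs with an *Il6* UMI was not compared with that of all ECs. Median UMIs were 2865 in the venous-gated and 1479 in the ungated ECs.

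*Il1b*, which encodes IL-1β, was a myeloid transcript in every library. Monocytes were at 4826 CPM (4525 to 5142), 4386 CPM (4043 to 4751) and 3579 CPM (3077 to 4140.2) at 0, 2 and 12 weeks, and macrophages at 2368 CPM (2306 to 2432), 2397 CPM (2191 to 2617) and 2353 CPM (2061 to 2675). Monocytes exceeded macrophages 2.04-fold (1.90 to 2.18) in the healthy library, 1.83-fold (1.62 to 2.06) at 2 weeks and 1.52-fold (1.25 to 1.85) at 12 weeks. The 12-week ratio rests in part on 1 macrophage that held 102 of the 234 UMIs of its class. Healthy macrophages exceeded ECs 146-fold (111 to 198) and FBs 162-fold (125 to 212). ECs, FBs and mural cells were at 16.2, 14.6 and 24.9 CPM, which is 0.683%, 0.618% and 1.05% of the macrophage level. *Lyz2* was at 0.552%, 0.680% and 0.910% of its macrophage level there, *Ctss* at 0.770%, 0.688% and 0.759% and *Fcer1g* at 0.491%, 0.758% and 1.13%, so *Il1b* in these 3 classes was not above the shares that the 3 macrophage genes reached, and no expression is read from it. In mural cells 1 cell held 16 of the 35 healthy UMIs, and in FBs 1 cell held 6 of 60. In ECs *Il1b* was lower at 2 weeks (ratio 0.336, 0.185 to 0.586). *Lyz2* in ECs was at 11.8 CPM then against 92.5 CPM in the healthy library, and the part of free RNA in the difference was not tested.

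In macrophages the pooled *Il1b* ratio to healthy was 1.01 (0.921 to 1.11) for 2 weeks and 0.994 (0.868 to 1.13) for 12 weeks. The cells behind these levels differed. UMIs were seen in 64.9% of healthy macrophages, 76.2% at 2 weeks and 42.9% at 12 weeks, and in the last library 1 of 49 cells held 102 of the 234 UMIs. Resident-gated macrophages were lower than the rest, at 1301 CPM (1229 to 1376) against 3096 CPM (3004 to 3190.2) in the healthy library and 422 CPM (225 to 722) against 3219 CPM (2809 to 3673) at 12 weeks, a difference of 2.38-fold (2.23 to 2.54) and 7.62-fold (4.37 to 14.5). The cell with 102 UMIs was among the others, and without it, an alternative chosen after seeing the data, the 12-week difference was 4.36-fold (2.45 to 8.42). Without the highest cell of each gate it was 13.9-fold (5.27 to 51.7), on 4 resident UMIs. The other macrophages, without their highest cell, were at 3049 CPM in the healthy library and 1840 CPM at 12 weeks. The pooled 12-week ratio of 0.994 thus rests in part on the cell with 102 UMIs. The resident gate held 293 of 826 healthy macrophages, 4 of 101 at 2 weeks and 13 of 49 at 12 weeks. Within the other macrophages the 2-week ratio was 0.792 (0.720 to 0.870). In monocytes the ratios to healthy were 0.909 (0.819 to 1.01) and 0.742 (0.629 to 0.870), the second on 11 cells.

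**Figure D4:**
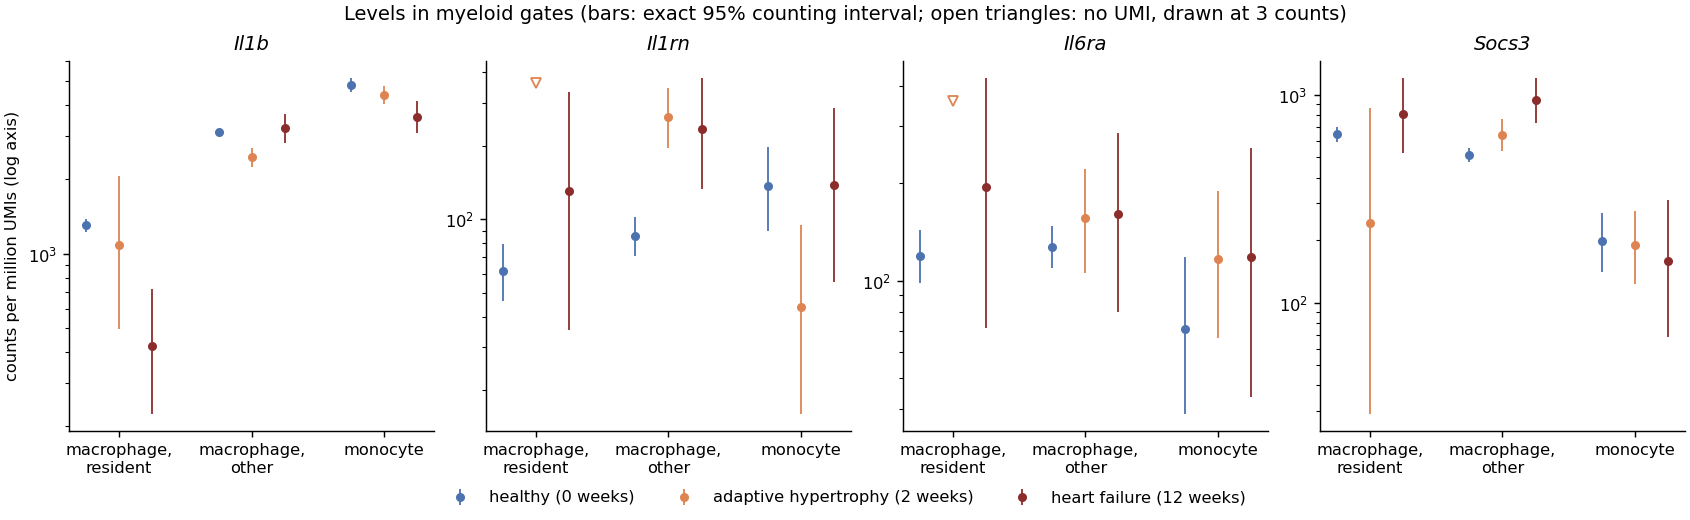
Level in CPM (log axis) of 4 genes in macrophages with at least 2 resident markers, in other macrophages and in monocytes, by phase, with exact 95% counting intervals and open triangles at 3 counts where there was no UMI. Healthy *Il1b* was at 1301 CPM in resident-gated macrophages, 3096 CPM in the others and 4826 CPM in monocytes.

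*Il1rn* encodes the antagonist that competes with IL-1 for IL1R1. It too was myeloid, at 75.8 CPM (65.0 to 87.8), 251 CPM (187 to 329) and 201 CPM (123 to 311) in macrophages and 136 CPM (89.8 to 198), 43.6 CPM (16.0 to 95) and 138 CPM (55.7 to 285) in monocytes. Relative to healthy macrophages, the level was 3.31 (2.38 to 4.53) times as high at 2 weeks, and 2.65 (1.58 to 4.22) times as high at 12 weeks. In those outside the resident gate it was 3.05 (2.16 to 4.26) and 2.72 (1.51 to 4.60). UMIs lay in 102 of 826, 28 of 101 and 10 of 49 macrophages, and at 12 weeks 5 cells held 75.0% of the 20 UMIs. Monocyte markers in the macrophage class summed to 68.1, 318 and 251 CPM over 10 genes, and endothelial capillary markers to 313, 1379 and 986 CPM over 6, and their part was not tested. In monocytes the 2-week ratio was 0.320 (0.108 to 0.792), on 6 UMIs. Outside myeloid cells *Il1rn* reached at most 8 UMIs in a class.

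Both *Il1b* and *Il1rn* were seen in 25 of 101 macrophages at 2 weeks (24.8%, 16.7 to 34.3%), against 73 of 826 in the healthy library (8.84%, 6.99 to 11.0%). At 12 weeks the count was 7 of 49. Cells with a UMI of each gene, whether or not they held the other, were also more frequent at 2 weeks than in the healthy library, so these counts do not show that the genes were paired more often. Of the macrophages with an *Il1rn* UMI, 71.6%, 89.3% and 70.0% also had an *Il1b* UMI.

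*Il1r1*, the signaling receptor for IL-1, lay in the other classes. No *Il1r1* UMI was found in any macrophage. With the limit taken as 3 counts, 0 of 826 healthy cells allows a share with a UMI of up to 0.363%. The libraries at 2 and 12 weeks had 0 of 101 and 0 of 49. Monocytes held 1, 1 and 0 UMIs. Mural cells were at 39.2 CPM (29.5 to 51.0), 62.7 CPM (33.4 to 107) and 48.6 CPM (17.8 to 106), FBs at 38.8 CPM (33.0 to 45.3), 53.8 CPM (29.4 to 90.2) and 47.9 CPM (32.3 to 68.4) and ECs at 19.1 CPM (14.5 to 24.6), 32.0 CPM (26.2 to 38.7) and 16.9 CPM (7.31 to 33.4). Against 3 counts in healthy macrophages, the level was 30.5-fold higher in mural cells, 30.2-fold higher in FBs and 14.9-fold higher in ECs. The intervals against 0 UMIs had lower bounds of 24.0, 24.3 and 11.7 in the same order. Healthy mural cells and FBs were not separated (1.01, 0.730 to 1.38), and FBs exceeded ECs 2.03-fold (1.5 to 2.79). The ratio of 2 weeks to healthy was 1.68 (1.21 to 2.35) in ECs. Venous-gated ECs exceeded ungated ones 3.87-fold (2.07 to 6.77) at 2 weeks, which became 1.93 (0.810 to 3.95) with the gate of 2 of 3 markers. The intervals of the phase ratios in FBs, mural cells and monocytes at 2 weeks, and in ECs, FBs, mural cells and monocytes at 12 weeks, included 1. Its partner *Il1rap* had 44 positive cells among healthy FBs, 9 of them among the 138 with an *Il1r1* UMI.

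*Il1rl1* encodes ST2, the receptor of IL-33. Its UMIs were 39, 6 and 0 in macrophages, or 16.7 CPM (11.9 to 22.8) and 28.9 CPM (10.6 to 63.0) at 0 and 2 weeks, with 3 counts at 30.2 CPM at 12 weeks. Monocytes had 1, 6 and 0 UMIs and ECs none in any library. Macrophages held 92.9% of the 42 healthy UMIs, and against 3 counts in healthy ECs their level was 17.2-fold higher. The interval against 0 UMIs had a lower bound of 13.3. The 3 UMIs of the heart failure library all lay in cells outside the 5 classes. A difference between phases in macrophages was not detectable at this depth (1.73, 0.600 to 4.12 at 2 weeks). In monocytes the 2-week ratio was 8.65 (1.05 to 398), on 6 UMIs against 1.

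*Il33*, the ligand of ST2, was mostly found in FBs, at 47.6 CPM (41.1 to 54.8), 42.2 CPM (21.1 to 75.6) and 86.3 CPM (64.8 to 113) at 0, 2 and 12 weeks. ECs were at 3.56 CPM (1.78 to 6.37), 3.02 CPM (1.45 to 5.55) and 6.35 CPM (1.31 to 18.6), and healthy FBs exceeded them 13.4-fold (7.31 to 27.2). Mural cells, macrophages and monocytes held 2, 4 and 0 healthy UMIs and none later. The ratio of 12 weeks to healthy in FBs was 1.81 (1.32 to 2.46), which became 1.27 without the 5 cells with the most UMIs in each library, and at 2 weeks it was 0.888 (0.436 to 1.62), on 11 UMIs. The 12-week ratio was 2.50 (1.58 to 3.84) in ungated and 1.88 (1.04 to 3.30) in activated FBs, but 0.761 (0.240 to 1.86) in adventitial FBs, on 5 UMIs against 69. In ECs 4 of 11 healthy UMIs and 8 of 10 at 2 weeks lay in venous-gated cells. On these few UMIs the venous-gated level was 41.3 and 58.3 CPM, beside 47.6 and 42.2 CPM in FBs. With the gate of 2 of 3 markers the ratios to other ECs were 11.5 (2.46 to 45.1) and 15.8 (3.27 to 66.4). In all healthy ECs together *Il33* was at 7.48% of its FB level, beside 1.08% for *Gsn*, 4.73% for *Bgn* and 13.8% for *Mgp*. The FBs also held these genes at high levels. Healthy macrophages and monocytes held *Mgp* at 1.86% and 1.35% of its FB level, and whether ECs made it was not tested.

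The counts of the 10 genes past 2-fold are given beside those of all genes. Among genes with at least 20 UMIs over both libraries, 10.1% of all genes were past 2-fold in ECs at 2 weeks and 2 of 7 of the list were (*Il6* higher, *Il1b* lower), and 17.6% and 2 of 6 at 12 weeks (*Il6ra* and *Socs3*, both lower). In FBs the background was 24.2% at 2 weeks, with 2 of 7 (the same pair of genes), and 13.9% at 12 weeks, with 0 of 7. In macrophages it was 25.5% at 2 weeks, with 1 of 7 (*Il1rn* higher), and 31.4% at 12 weeks, with 3 of 7 (*Il6st* and *Il1rn* higher, *Il1rl1* lower). These counts use the fold alone, and the intervals of *Il6ra* in ECs at 12 weeks (1 UMI against 25), *Il1b* in FBs at 2 weeks (1 against 60) and *Il1rl1* in macrophages at 12 weeks (0 against 39) included 1, so no difference can be read for them. *Il1b* in ECs was not above the shares that the 3 macrophage genes reached, so no change in expression is read from it either. The members' median log2 ratio was -0.24 in ECs, -0.17 in FBs and 0.30 in macrophages at 2 weeks and -0.55, 0.26 and 0.46 at 12 weeks, beside 0.02, -0.02, 0.03, 0.10, 0.02 and -0.03 over all genes in the same order.

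Of 72 other genes of the pathways, 67 were found once in the files. In ECs 3 were higher and 2 lower past 2-fold of 46 with enough UMIs at 2 weeks, and 5 and 3 of 41 at 12 weeks, beside 10.1% and 17.6% of all genes past 2-fold, so the list was close to the background. At 2 weeks *Ccl2*, a monocyte attractant, was at 2.42 CPM against 20.1 in ECs, a ratio of 0.121 (0.0498 to 0.252), and *Lcn2*, an acute phase gene, at 1.51 against 14.2 CPM, a ratio of 0.106 (0.0328 to 0.267). *Il18bp*, which neutralises IL-18, had a ratio of 2.22 (1.35 to 3.74) at 2 weeks and 2.73 (1.16 to 5.92) at 12 weeks, and the kinase *Tyk2* one of 2.12 (1.12 to 4.18) at 2 weeks. At 12 weeks *Cxcl2*, a neutrophil attractant, was at a ratio of 0.327 (0.185 to 0.540), *Casp1*, the protease that cleaves pro-IL-1β, at 2.55 (1.27 to 4.84) and *Irak3*, an inhibitor of IL-1 signaling, at 2.53 (1.19 to 5.08).

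In FBs 7 genes were higher and 3 lower of 47 at 2 weeks, and 3 and 3 of 47 at 12 weeks, beside 24.2% and 13.9% of all genes, again close to the background. At 2 weeks *Cntfr*, the receptor subunit for CNTF, had 1 UMI against 89 (0.177, 0.00443 to 1.01), *Cxcl2* a ratio of 0.251 (0.0513 to 0.745) and *Tyk2* one of 3.50 (0.861 to 10.6). The intervals of *Cntfr* and *Tyk2* included 1, so no difference can be read for either. At 12 weeks the adhesion molecule genes *Vcam1* and *Icam1* had ratios of 2.79 (2.32 to 3.36) and 2.57 (2.08 to 3.16), *Cxcl2* 0.453 (0.237 to 0.793) and the kinase *Irak4* 0.262 (0.0309 to 0.997).

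In macrophages 4 genes were higher and 2 lower of 39 at 2 weeks, and 6 and 5 of 38 at 12 weeks, beside 25.5% and 31.4% of all genes, which the list did not exceed. At 2 weeks the ratio was 3.44 (1.58 to 6.91) for the kinase *Jak2*, 2.35 (1.62 to 3.33) for *Tnfaip3*, which restrains NF-kB, 0.409 (0.354 to 0.471) for *Ccl2* and 0.363 (0.00892 to 2.18) for *Map3k7*, a kinase of IL-1 signaling. At 12 weeks *Il1a*, the other IL-1 ligand, had 3 UMIs against 203 (0.347, 0.0710 to 1.03), *Traf6* a ratio of 3.36 (0.641 to 11.2), and *Il1rap* and *Irak3* no UMI against 20 and 26. The intervals of *Map3k7*, *Il1a*, *Traf6*, *Il1rap* (0 to 4.76) and *Irak3* (0 to 3.58) included 1, so no difference can be read for these 5 genes. In mural cells 2 genes were higher and 3 lower of 31 at 2 weeks, and 1 and 11 of 28 at 12 weeks. In monocytes the counts were 2 and 4 of 21, and 1 and 4 of 17. The share of all genes was not counted in either class, so no result is read from these counts.

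Over the 15 combinations of class and phase with at least 30 cells, the genes most like each member were taken by Pearson's r of log2(CPM + 1). For *Il1b* they were *Ccl9* (0.99), *Bcl2a1a* (0.98) and *Fam105a* (0.98), for *Il1rn* *Lilr4b* (0.97), *Ccl6* (0.96) and *Aif1* (0.95), and for *Il6ra* *Cd68* (0.96, a gene of the macrophage list), *Rbpj* (0.95) and *Metrnl* (0.95). *Il33* was closest to *Wnt9a* (0.98), *Adamtsl3* (0.98) and *Fndc1* (0.97), *Il6st* to *Hdac4* (0.96), *Vat1* (0.95) and *Ltbr* (0.95), and *Il1r1* to *Sept11* (0.94), *Zfp322a* (0.94) and *Nedd4* (0.93). *Socs3* was closest to *Atf3* (0.95), an immediate early gene of the stress list, then *Eid1* (0.94) and *Tmem101* (0.93). *Il6* had lower values, with *Prkab2* (0.85) and *Cdk5rap2* (0.84). The combinations share libraries, so these values only describe them, and *Lif* and *Il1rl1* had too few UMIs for the comparison.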

How the data were processed

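Ventricular non-CMs were freed with collagenase, enriched on a density gradient and captured on a 10x Chromium 3′ v2 chip, 1 library per phase. The authors aligned reads to mm10 with Cell Ranger 2.0.0 and deposited filtered matrices of counts (UMIs per gene and cell), not normalized. The matrices held 3900, 2239 and 802 barcodes. Here, cells under 200 genes were removed (8, 8 and 10). A cell was given to the lineage whose summed marker UMIs were at least 4 and at least 3 times the next lineage's. Cells with more macrophage than monocyte marker UMIs by 3-fold were macrophages, and those with more monocyte than macrophage UMIs were monocytes. Other cells stayed mixed, below the minimum or in between. The EC, FB, mural, macrophage and monocyte lists hold 10 genes each, none of them a gene described here.

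Levels are summed UMIs per 1000000 UMIs of the class (CPM), with exact Poisson intervals. Shares of cells have exact Clopper-Pearson intervals, and ratios of levels have intervals from the exact binomial test of 2 counts, all at 95%. Intervals and limits from 3 counts cover counting error only. With 1 library per phase no test between phases was made and no p-value is given. Ratios against 0 UMIs use 3 counts for the class without any. Counts past 2-fold use genes with at least 20 UMIs over both phases. The genes named beyond the 10 were list genes past 2-fold, at most 4 per class and comparison by size, and the 3 genes with the highest Pearson r among genes with at least 100 UMIs. Some genes that these rules take are not reported here. To compare shares of cells, each cell was thinned to 1000 UMIs, which left out shallower cells (0, 606 and 268). Doublets were not removed in the main values. Scrublet called 38, 2 and 1, fewer than 0.5% of cells in the later libraries, so leaving them out says little there. The ratios were checked on simulated counts. The genes and the lists were chosen with earlier results of these data known. Promoters came from RefSeq on GRCm38.p6, the mm10 assembly. Python 3.11.15, numpy 2.4.6, scipy 1.17.1, pandas 2.3.3, scanpy 1.11.5 and matplotlib 3.10.9 were used. The alternatives tried were at least 500 genes per cell, a limit of 10% mitochondrial UMIs, doublet removal, gate ratios of 2 and 5, a mean over cells, thinning, another fold limit or UMI minimum for the pathway list, and, after seeing the data, leaving out the 5 cells with the most UMIs of a gene, a 3-marker venous gate and macrophage gates without their highest cell for *Il1b*.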

Additional observations from a re-analysis of the deposited data

Results flagged for a closer look

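Several genes had ratios to healthy on opposite sides of 1 in different classes. With 1 library per phase these differences between classes were not tested. For *Il6* at 12 weeks the ratio was 1.25 in FBs and 0 in mural cells, where 39 cells held no UMI, but the FB ratio was 0.853, on the same side of 1 as mural cells, without the 5 cells with the most UMIs in each library. For *Socs3* at 12 weeks it was 1.2 in FBs, 1.6 in macrophages and 0.367 in ECs. For *Il1rn* at 2 weeks it was 3.31 in macrophages and 0.32 in monocytes, the latter on 6 UMIs against 27.

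Cells outside the 5 classes also held high levels, which no comparison used. Granulocyte-gated cells had *Il1b* at 12160 CPM at 2 weeks (6 cells) and 8621 CPM at 12 weeks (13 cells), above macrophages and monocytes of the same libraries. Neural-gated cells had *Socs3* at 1438 CPM in the healthy library (24 cells) and 1802 CPM at 2 weeks (13 cells), and *Il6st* at 544.8 CPM at 2 weeks. Among cells between macrophages and monocytes, *Il6* was at 2845 CPM at 12 weeks, from 24 UMIs in 1 of 2 cells, and *Il1rn* at 1179 CPM at 2 weeks, in 9 cells.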

How the results depend on the processing

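No paired analysis was possible because each phase is 1 library. Of 529 alternative values for 99 results, 463 stayed within the spread allowed, 63 moved beyond it and 3, of ratios whose interval excluded 1, turned to the other side of 1. Some ratios whose interval included 1 also changed side, and no direction is read from these. Depth limits *Lif* and *Il1rl1* in all classes, and the 2-week and 12-week values of FBs, mural cells and myeloid cells rest on few cells. A minimum of 500 genes per cell, the mitochondrial limit, doublet removal and a gate ratio of 5 moved none of the 20 levels, 19 ratios between classes and 24 ratios between phases on which they were run. Levels and ratios within the EC, FB and macrophage gates were not run under them. The causes of the movements were not tested, except where fewer genes or cells entered by construction.

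The ratios that turned although their interval excluded 1 were *Il6* in FBs at 2 weeks (0.974 thinned), *Il6* in FBs at 12 weeks (0.853 without the 5 highest cells) and *Il6* in venous-gated over other ECs in the healthy library (0.271 with 3 venous markers). With that gate the 2-week ratios were 3.59 for *Il6*, 1.93 for *Il1r1* and 15.8 for *Il33*. The 12-week ratio of *Il1b* in other over resident-gated macrophages was 4.36 without the highest cell of the other macrophages. Without the 5 highest cells, ratios to healthy were 1.08 for *Il6* in FBs at 2 weeks, 1.27 for *Il33* and 1.05 for *Socs3* in FBs at 12 weeks, and 0.918 for *Il1b* and 0.910 for *Socs3* in macrophages at 2 weeks.

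Thinned ratios were 7.43 for *Il6* in ECs at 2 weeks, 1.27 for *Il6st* in FBs at 12 weeks, and 0.665 and 0.607 for *Il1b* in monocytes at 2 and 12 weeks. Thinned shares of cells with a UMI were 1.62% and 6.30% for *Il6* in ECs at 0 and 2 weeks, 11.0%, 14.3% and 12.2% for *Il6* in FBs at 0, 2 and 12 weeks, and in healthy cells 11.9% for *Il6ra*, 6.17% for *Il1rn* and 40.8% for *Socs3* in macrophages, 16.0% for *Il6st* and 4.20% for *Il33* in FBs and 2.86% for *Il1r1* in mural cells.

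As a mean over cells, levels were 164 CPM for *Il6* in healthy FBs, 344 and 255 CPM for *Il6st* in FBs at 2 and 12 weeks, 769 CPM for *Socs3* and 343 CPM for *Il1rn* in macrophages at 2 weeks, and 5221 and 3578 CPM for *Il1b* in monocytes at 0 and 2 weeks. Class ratios were then 2.20 and 1.33 for *Il1b* in monocytes over macrophages at 0 and 2 weeks, 2.76 for *Il6st* in FBs over ECs at 12 weeks, and 1.12 and 3.49 for *Socs3* in macrophages over ECs at 2 and 12 weeks. Ratios to healthy were 1.13 and 0.763 for *Il1b* in macrophages and 0.685 and 0.623 in monocytes at 2 and 12 weeks, 4.76 for *Il1rn* and 1.33 for *Socs3* in macrophages at 2 weeks, and 1.94 and 1.44 for *Il6st* in FBs at 2 and 12 weeks. With a gate ratio of 2, *Il1b* in healthy monocytes was at 4460.4 CPM and 1.88-fold above macrophages.

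Counts of pathway genes depend on the limits. The share of all genes was counted only at 2-fold with at least 20 UMIs. The counts below therefore have no background beside them, and no result is read from them. At 1.5-fold, 10 were higher and 9 lower in ECs at 12 weeks and 6 lower in ECs at 2 weeks, 18 higher and 6 lower in FBs at 2 weeks, 10 and 6 in FBs at 12 weeks, 14 and 5 in macrophages at 2 weeks and 16 higher in macrophages at 12 weeks. With at least 50 UMIs, 1 was higher and 1 lower in ECs at 2 weeks, 2 higher in ECs at 12 weeks, 4 higher in FBs at 2 weeks, 1 higher and 1 lower in macrophages at 2 weeks and 3 lower in macrophages at 12 weeks.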

Other observations

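Other genes of the list, chosen after their values were seen, were also spread unequally over the classes. *Osm*, an IL-6 family ligand, was at 78.8, 145 and 101 CPM in macrophages and 141, 167 and 138 CPM in monocytes at 0, 2 and 12 weeks, whereas its receptor *Osmr* was at 123, 129.9 and 91.1 CPM in ECs, 195, 183 and 48.6 CPM in mural cells and 54.4, 96.0 and 73.5 CPM in FBs, with 8 UMIs in healthy macrophages. The IL-11 receptor gene *Il11ra1* was at 263, 261 and 359 CPM in FBs, and lower in ECs (34.9, 21.7 and 48.7 CPM), mural cells (62.0, 110.9 and 40.5 CPM) and macrophages (40.2, 43.4 and 40.2 CPM). *Il1r2*, the decoy receptor for IL-1, was at 197, 102 and 19.8 CPM in monocytes, on 39, 14 and 1 UMIs. The inflammasome gene *Nlrp3* was at 264, 400.3 and 181 CPM in macrophages. *Sigirr*, an inhibitory member of the IL-1 receptor family, was at 46.6, 54.1 and 50.8 CPM in ECs and had 4 UMIs in healthy FBs.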
